A study of Mus musculus with 9 samples.

Results

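The 8 transcription factors described here govern the differentiation of the epidermis. They are the grainyhead factors Grhl1, Grhl2 and Grhl3, the zinc finger factors Klf4, Ovol1 and Prdm1, and Gata3 and Trp63. They were taken by symbol from the 38203 genes of the expression table, and each symbol had 1 row. RNA came from the epidermis, basal to cornified layers, of E18.5 mouse embryos on a mixed C57BL6/129Sv background that had been back-crossed, and each library was 1 embryo. The 9 libraries represent 4 genotypes, namely WT controls (2 libraries), KO embryos without Esrp1 and with both Esrp2 alleles (3), KH embryos without Esrp1 and with 1 Esrp2 allele (2) and DKO embryos without Esrp1 and Esrp2 (2). In the Esrp1 null allele, coding exons had been removed in the germline by Zp3-Cre, which is active in the oocyte, and the Esrp2 null allele came from a targeted ES cell line, so that all tissues of the embryos lacked the genes. One passage of the labels describes the controls as Esrp1+/+ and Esrp2-/-, whereas their own genotype label is WT, and the Esrp2 level of these libraries is given below. Expression was measured as FPKM, the fragments assigned to a gene scaled to its exon length and to the size of the library, so that levels can be set side by side between genes.

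The epidermis renews itself from a basal layer of dividing keratinocytes, which leave that layer, pass through the spinous and granular layers and end as the cornified barrier. Trp63 (p63) is the regulator of basal keratinocyte identity and of stratification. Grhl3 and Klf4 are required for the embryo to acquire a skin barrier, Grhl1 acts on desmosomal cadherin genes in the upper layers, and Grhl2 maintains epithelial junctions. Ovol1 restrains the growth of keratinocytes that have left the basal layer, Prdm1 (Blimp1) acts in the granular layer, and Gata3 acts in barrier lipid synthesis and in the hair follicle. Esrp1 and Esrp2 are epithelial splicing regulators, and the question here was what loss of 2, 3 or 4 Esrp alleles did to the RNA of these factors.

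Among the 8 genes, Grhl1 bears on the study's splicing question directly, because the study followed the skipping of its exon 5. The exon lies at chr12:24582885-24582961 (GRCm38, plus strand, GENCODE M21), is exon 5 of 16 in the longest coding transcript and is wholly coding. It is shown because its length, 77 bases, is not a multiple of 3.

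Grhl1 exon 5: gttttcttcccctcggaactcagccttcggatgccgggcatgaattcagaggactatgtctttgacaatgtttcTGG

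The capitals mark the 1 TGG in the exon. When the exon was left out of the annotated transcript by calculation, the reading frame met a stop after 226 codons, in place of 618, and 10 exon junctions lay beyond that stop. All 4 Grhl1 transcripts in the annotation contain the exon. Gene FPKM values do not separate transcripts with and without it, so its inclusion in these libraries was not analysed here.

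The targeted genes were checked first. Markers of basal, spinous and granular keratinocytes were found in every library, with the sums given below. Esrp2 measured 118 and 136 FPKM in WT, 88.1, 88.4 and 131 FPKM in KO, 38.6 and 89.5 FPKM in KH, and 0.0843 and 0.0463 FPKM in DKO. The WT libraries therefore held Esrp2 RNA within or above the KO range, and the DKO libraries held almost none. Esrp1 measured 119 and 142 FPKM in WT and between 18.2 and 55.1 FPKM in the 7 libraries without Esrp1, where the transcript outside the deleted exons can still be counted.

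The libraries differed in their balance of epidermal layers within as well as between genotypes. KO replicate 1, KH replicate 1 and DKO replicate 2 had summed FPKM of 13 granular layer markers (Lor, Flg, Ivl and others) of 7251, 6283 and 8668, against 14805 to 19764 in the other 6 libraries. Their 8 spinous markers summed to 35862, 43420 and 39775 FPKM, against 69001 to 94368. The 9 basal markers, among them Krt5 and Krt14, summed to 8526, 7562 and 7411 FPKM in these 3 libraries and to 4135 to 6604 FPKM in the others. In these bulk samples, fewer cells of a layer and less RNA per cell cannot be told apart. The summed FPKM of all genes ran from 713318 to 1130713 per library, and 11851 to 12228 genes reached 1 FPKM. The read totals that the study gives were not used, because their library numbers do not match the labels, so the depth behind single values is not given. Markers of other cells were found at uneven levels. The 9 immune markers found of 10 summed to 6.08 to 72.9 FPKM (highest in KH replicate 2) and the 8 fibroblast markers to 102 to 215 FPKM (KO replicate 1). The 7 melanocyte markers summed to 51.2 and 45.8 FPKM in WT, 71.5 to 89.7 FPKM in KO, 158 and 60.0 FPKM in KH, and 99.0 and 216 FPKM in DKO, so that all 7 mutant libraries lay above both WT libraries and both DKO libraries above WT and KO. Red blood cell markers summed to 15.3 to 1520 FPKM (DKO replicate 2), and the 14 hair follicle markers to 386 to 722 FPKM (KO replicate 1). Of the endothelial markers 4 of 5, and of the muscle markers 5 of 6, stayed below 1 FPKM in every library, with sums of up to 4.25 and 15.5 FPKM. The part of these cells in the results below was not tested.

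All 8 factors were expressed in every library. Averaged over the 9 libraries, Klf4 had the highest level of the 8 (203 FPKM), followed by Grhl1 (84.7 FPKM), Ovol1 (76.5 FPKM), Grhl3 (62.4 FPKM), Trp63 (49.5 FPKM), Gata3 (32.7 FPKM), Prdm1 (16.0 FPKM) and Grhl2 (15.0 FPKM). Klf4 ranked first in all 9 libraries, Ovol1 exceeded Grhl3 in all 9, and Gata3 exceeded Prdm1 in all 9. The other neighbours changed places. Grhl1 exceeded Ovol1 in 7 libraries and lay below it in 2, which were the DKO libraries, while Grhl3 exceeded Trp63 in 7, Trp63 exceeded Gata3 in 8, and Prdm1 exceeded Grhl2 in 6. Trp63 ranked 2 of the 8 in KO replicate 1 and KH replicate 1, and 4 to 6 in the other libraries.

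**Figure D1:**
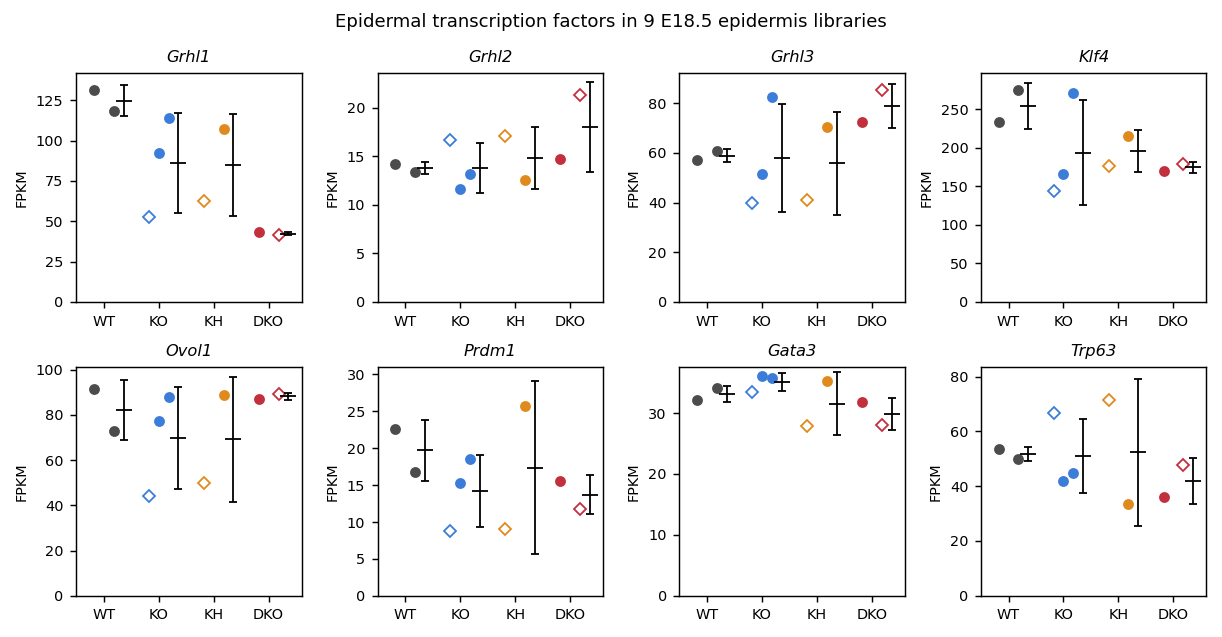
FPKM of the 8 factors in each library, by genotype. Each point is 1 embryo, open diamonds are the 3 libraries with low granular marker sums (KO replicate 1, KH replicate 1 and DKO replicate 2), and the bar beside each group is the mean with its SD (n = 2, 3, 2 and 2). Grhl1 lies between 41.6 and 43.0 FPKM in DKO, below all 7 other libraries.

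Grhl1, the grainyhead factor linked to desmosomal cadherins, was the member with the largest difference between DKO and WT. It measured 131 and 118 FPKM in WT, 52.8, 92.1 and 114 FPKM in KO, 62.4 and 107 FPKM in KH, and 43.0 and 41.6 FPKM in DKO. The DKO libraries lay below every other library and nearly on each other, at 42.3 ± 1.03 FPKM (SD, n = 2), or 33.9% of the WT mean of 125 ± 9.50 FPKM (n = 2). KO and KH averaged 86.2 ± 31.0 FPKM (n = 3) and 84.8 ± 31.6 FPKM (n = 2), about 69.1% and 68.0% of WT, with all 5 libraries below both WT libraries. The difference between DKO and WT was -1.54 on the log2(FPKM + 1) scale (SE 0.37, 95% interval -2.38 to -0.69), with an unadjusted limma p of 0.00281 and an adjusted p of 0.136 over all 16897 genes tested. It thus missed the 0.05 threshold in the fit of all 9 libraries. The adjusted p was below 0.05 when the libraries were rescaled to a common sum (TPM, 0.0397) and when limma weighted them by their quality (0.0271), but these settings also raised the number of genes called from 123 to 178 and 556. Over 11 alternative settings of scaling, filter and fit, the difference lay between -1.61 and -1.37, with adjusted p between 0.0271 and 0.205. Alternatives added after the data were seen are described further below. Of these, the fits with the granular and the basal marker sum as a covariate lay outside this range, at -1.35 and -1.10. The replicate block by the numbers in the sample descriptions, which leaves 1 residual degree of freedom, lay outside it on the other side, at -2.37. Against KO and KH the DKO difference was -0.94 in each case (SE 0.34 and 0.37, adjusted p = 0.542 and 0.779 by limma), and without KH replicate 2 the difference from KH was -0.55. KO and KH differed from WT by -0.59 and -0.60 (SE 0.34 and 0.37, adjusted p = 0.853 and 0.980 by limma). These values rested on single libraries. The KO difference was -0.28 without KO replicate 1, and the KH difference was -0.22 without KH replicate 1 and -0.99 without KH replicate 2.

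Grhl2, which maintains epithelial junctions, was the factor of lowest level. It measured 14.2 and 13.4 FPKM in WT, 16.7, 11.6 and 13.2 FPKM in KO, 17.1 and 12.6 FPKM in KH, and 14.7 and 21.3 FPKM in DKO. Its 3 highest values were those of DKO replicate 2, KH replicate 1 and KO replicate 1, the libraries with low granular marker sums. The DKO mean was 130% of WT, a difference of 0.34 (SE 0.26, 95% interval -0.25 to 0.93) that was not called. Without DKO replicate 2 the difference was 0.09, and without DKO replicate 1 it was 0.59. With the granular marker sum as a covariate it was 0.22, and with the basal sum 0.13.

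Grhl3, required for barrier formation in the embryo, had its highest value of the series in DKO. It measured 57.0 and 60.8 FPKM in WT, 40.0, 51.7 and 82.3 FPKM in KO, 41.2 and 70.5 FPKM in KH, and 72.6 and 85.2 FPKM in DKO. Both DKO libraries lay above both WT libraries, but KO replicate 3 lay between them, and KO replicate 1 and KH replicate 1 held the lowest values. The DKO mean was 134% of WT and the difference was 0.41 (SE 0.36, 95% interval -0.40 to 1.22), with an adjusted p of 0.617 by limma. At the lower end the interval reaches -0.40 and at the upper end more than a doubling.

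The shares of the 3 grainyhead factors in their common sum are given as a description, and they rest on the Grhl1 values above. Their summed FPKM was 203 and 192 in the WT libraries, 109, 155 and 209 in the KO libraries, 121 and 190.2 in the KH libraries, and 130.4 and 148 in the DKO libraries. Of that sum, Grhl1 supplied 64.9% and 61.4% (WT), 48.2%, 59.3% and 54.4% (KO), 51.7% and 56.3% (KH), and 33.0% and 28.1% (DKO). Grhl3 supplied 28.1% to 39.3% in the other 7 libraries and 55.7% and 57.6% in DKO, so that Grhl3 had the larger share in both DKO libraries and Grhl1 in all others.

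A ratio taken within a library does not depend on a scaling factor common to all genes of that library. It can still depend on a trend with transcript length. Spearman's rho of length with the log2 ratio to the mean level ran from -0.33 (KO replicate 2) to 0.23 (WT replicate 2). Median transcript lengths were 3183.5 bases for Grhl1, 2789 for Grhl3, 1850 for Ovol1 and 859 for Klf4. The part of length in the ratios was not tested. The ratio of Grhl1 to Grhl3 was 2.31 and 1.94 for WT, 1.32, 1.78 and 1.38 for KO, 1.52 and 1.52 for KH, and 0.593 and 0.488 for DKO. The ratio of Grhl1 to Ovol1 was 1.44 and 1.62 for WT, 1.19, 1.19 and 1.30 for KO, 1.26 and 1.21 for KH, and 0.495 and 0.466 for DKO. In KO replicate 1 and KH replicate 1 both Grhl1 and Ovol1 were low, and their ratio lay within 1.19 to 1.30, the range of the KO and KH libraries. The ratio of Grhl1 to Trp63 did not separate the genotypes, since DKO, at 1.196 and 0.869, lay within the 0.792 to 3.20 of the other libraries. The Grhl1 ratios share the Grhl1 values, which in DKO lay outside those of all other libraries. They were chosen after the levels had been seen and were not tested. They show unequal change and not which gene of a pair changed.

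**Figure D2:**
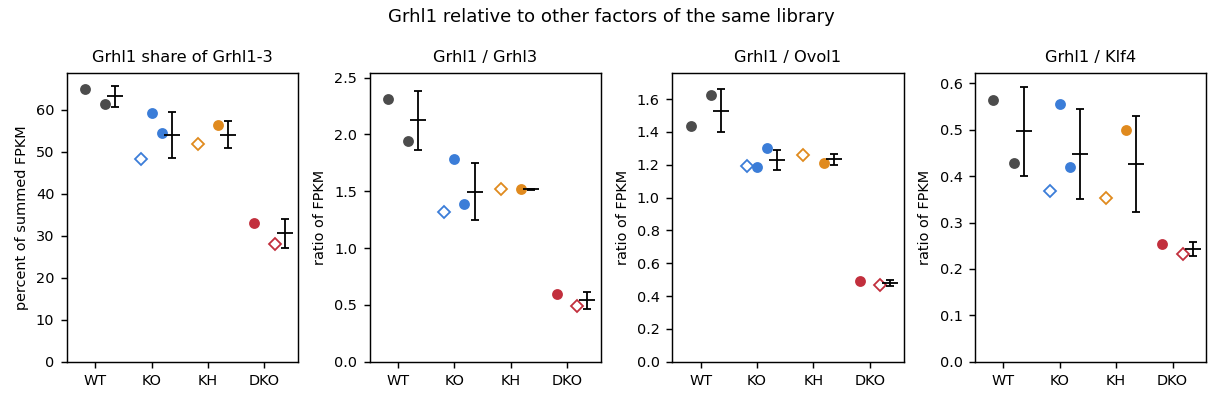
Grhl1 relative to other factors of the same library, by genotype: its percent of the summed FPKM of Grhl1, Grhl2 and Grhl3, and its FPKM ratio to Grhl3, Ovol1 and Klf4. Points are embryos, open diamonds the 3 libraries with low granular marker sums, bars the mean with SD; both DKO libraries lie below the other 7 in each panel shown; the ratio to Trp63, which overlaps, is not drawn (28.1% and 33.0% of the grainyhead sum, against 48.2% to 64.9%).

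Klf4, a zinc finger factor needed for the barrier and the most abundant of the 8, measured 233 and 275 FPKM in WT, 144, 166 and 271 FPKM in KO, 176 and 215 FPKM in KH, and 169 and 179 FPKM in DKO. Both DKO libraries were below both WT libraries, at 68.7% of WT on average, while KO spanned almost the whole range of the series. The DKO difference was -0.54 (SE 0.31, 95% interval -1.24 to 0.17, adjusted p = 0.467 by limma). KO and KH differed from WT by -0.44 (SE 0.28) and -0.38 (SE 0.31), so that the 3 mutant genotypes lay within 1 SE of each other. The KO difference was -0.25 without KO replicate 1 and -0.71 without KO replicate 3, and the KH difference was -0.24 without KH replicate 1. With the basal marker sum as a covariate the DKO difference was -0.28.

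Ovol1, which restrains the growth of suprabasal keratinocytes, measured 91.5 and 72.8 FPKM in WT, 44.2, 77.4 and 87.7 FPKM in KO, 49.6 and 88.6 FPKM in KH, and 87.0 and 89.3 FPKM in DKO. Low values were seen in KO replicate 1 and KH replicate 1, and the other 7 libraries lay within 72.8 to 91.5 FPKM. The difference between DKO and WT was 0.11 (SE 0.37, 95% interval -0.73 to 0.95), and its sign turned without WT replicate 2 (-0.05). With the basal marker sum as a covariate it was 0.53, and with the granular sum 0.29.

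Prdm1, a transcriptional repressor of the granular layer, measured 22.7 and 16.8 FPKM in WT, 8.82, 15.3 and 18.49 FPKM in KO, 9.06 and 25.7 FPKM in KH, and 15.6 and 11.8 FPKM in DKO. KH held both the highest value and one of the 2 lowest, and the 3 lowest values were again those of KO replicate 1, KH replicate 1 and DKO replicate 2. The DKO mean was 69.5% of WT, and the difference was -0.49 (SE 0.47, 95% interval -1.57 to 0.58), the widest interval of the 8 factors. Its sign turned with the log2 basal marker sum as a covariate (0.11), and it was -0.22 with the granular sum. Without WT replicate 1 it was -0.29, and without DKO replicate 2 it was -0.31.

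Gata3, which acts in barrier lipid synthesis, was the steadiest of the 8, with a coefficient of variation of 9.46% over the 9 libraries, against 19.8% to 41.4% for the others. It measured 32.2 and 34.1 FPKM in WT, 33.5, 36.1 and 35.8 FPKM in KO, 27.9 and 35.2 FPKM in KH, and 31.7 and 28.0 FPKM in DKO. Both DKO libraries lay just under both WT libraries, at 90.2% of WT, with a difference of -0.15 (SE 0.19, 95% interval -0.57 to 0.28). A change of 2-fold in either direction lies outside that interval. Without DKO replicate 2 the difference was -0.06, and without DKO replicate 1 it was -0.23. The granular and basal covariates gave -0.09 and -0.03.

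Trp63, the regulator of the basal layer, measured 53.6 and 49.9 FPKM in WT, 66.6, 42.0 and 44.8 FPKM in KO, 71.4 and 33.5 FPKM in KH, and 36.0 and 47.8 FPKM in DKO. Its extremes were both in KH, and both DKO libraries lay under both WT libraries, at 81.1% of WT. The difference between DKO and WT was -0.31 (SE 0.36, 95% interval -1.14 to 0.52, adjusted p = 0.723 by limma). It was -0.11 without DKO replicate 1 and -0.51 without DKO replicate 2, -0.52 with the granular covariate and -0.74 with the basal covariate.

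None of the 8 members was called between DKO and WT by limma, where a call needed an adjusted p below 0.05 and average FPKM values more than 2-fold apart. Of all 16897 genes tested, 123 were called, or 0.728%, and beside that share a count of 0 in 8 is no result about these genes. At an unadjusted p below 0.05 there was 1 member of 8 (Grhl1), beside 13.8% of all genes. The median difference of the 8 was -0.23, beside 0.02 for all genes tested, with 5 members below 0 and 3 above. In 7 of the 8 members, Ovol1 being the exception, the DKO libraries did not overlap the WT libraries, but the same held for 54.3% of all genes tested with 2 libraries on each side. Against all 7 other libraries, DKO did not overlap in 1 member (Grhl1) and in 10.9% of all genes.

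The other comparisons also called none of the 8 members by limma. The background was 0.0296% of genes in KH against WT, 0.0296% in KO against WT, 0.639% in DKO against KO, 0.426% in DKO against KH and 0% in KH against KO. At an unadjusted p below 0.05, Grhl1 was the 1 member found in DKO against KO, beside 6.8% of all genes, and in DKO against KH, beside 5.71%. KH against WT, KO against WT and KH against KO had 0 members at that p, beside 3.72%, 4.53% and 1.09% of all genes. KO, KH and DKO were compared with the same 2 WT libraries, so that their differences are not independent. Between KH and KO, which differ by 1 Esrp2 allele, the 8 differences ran from -0.16 to 0.17. With single libraries left out they ran from -0.57 (Trp63) to 0.87 (Prdm1), so the narrow range does not show that the 2 genotypes were alike.

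Against the mean of WT, KO and KH, again 0 members were called, beside 0.982% of all genes. Grhl1 was lower by -1.14 on the log2 scale (SE 0.30, 95% interval -1.82 to -0.46, unadjusted p = 0.00457 by limma, adjusted p = 0.173), and the adjusted p was 0.0430 after rescaling to TPM, where 232 genes were called in place of 166. At an unadjusted p below 0.05, 10.8% of all genes were found. Over the number of Esrp alleles lost (0 in WT, 2 in KO, 3 in KH, 4 in DKO), the slope of Grhl1 was -0.34 per allele (SE 0.09, 95% interval -0.54 to -0.14), with an unadjusted p of 0.00348 and an adjusted p of 0.200 by limma. No gene passed an adjusted p of 0.05 for the trend (0% called), although 14% of genes, and 1 of the 8 members, had an unadjusted p below 0.05. With library weights the Grhl1 slope of -0.33 passed (adjusted p = 0.0255 by limma), but 1577 of the 16897 genes then did so. The slopes of the 7 other members lay between -0.13 and 0.08 per allele.

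**Figure D3:**
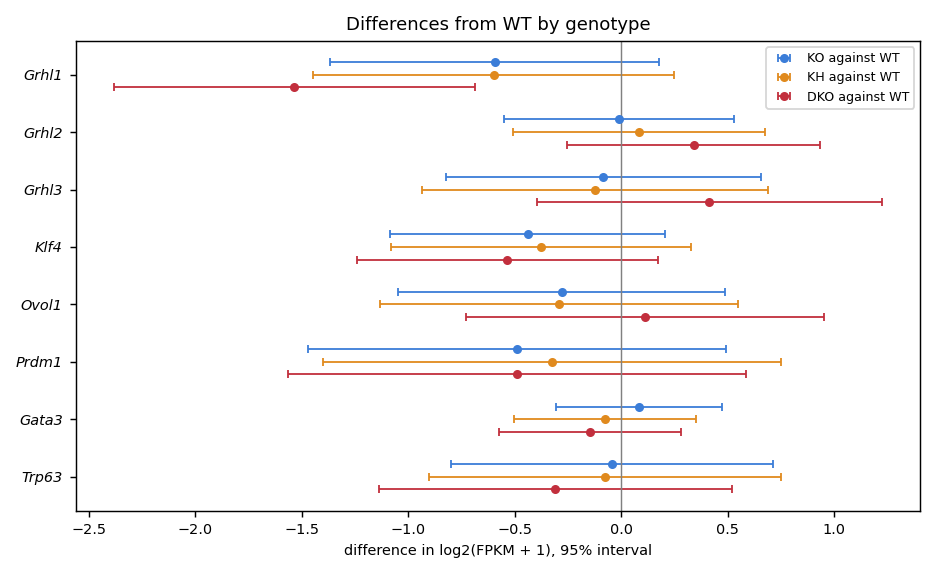
Difference from WT in log2(FPKM + 1) for the 8 factors in KO (blue), KH (orange) and DKO (red), with limma's 95% interval; the vertical line marks no difference. The Grhl1 interval in DKO, -2.38 to -0.69, is the 1 interval of the 24 that does not include 0.

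Differences between embryos of 1 genotype were large beside those between genotypes. Within genotypes the SD on the log2 scale was 0.13 for Gata3, 0.26 for Grhl2, and 0.33 to 0.58 for the other 6 members. For Grhl1, 28.2% of the sum of squares over the 9 libraries lay within genotypes, and for the 7 other members 53.0% (Gata3) to 88.5% (Trp63) did. The factors did not vary independently of each other. Taken as deviations from genotype means, all 15 pairs among Grhl1, Grhl3, Klf4, Ovol1, Prdm1 and Gata3 were positively correlated over the 9 libraries (r from 0.40 to 0.98, the highest being Grhl1 with Ovol1). All 6 pairs of these genes with Trp63 were negative (r from -0.95 to -0.49), as were all 6 with Grhl2 (-0.88 to -0.33), and the pair of Grhl2 and Trp63 was positive (r = 0.90). All pairs rest on the same 9 libraries, from which 4 genotype means were removed, and the values are given as a description. Without the genotype means removed, Grhl1 and Ovol1 had r = 0.31 and Grhl1 and Grhl3 r = 0.03, the DKO libraries being the ones in which Grhl1 was low while Ovol1 and Grhl3 were not.

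The summed level of the basal markers moved with this axis, but the sum did not follow the 9 markers alike. KH replicate 2 had the lowest sum (4135 FPKM), with 5 of the 9 markers above both WT libraries and 3 below both. KO replicate 3, at 5347 FPKM, had 7 above and 1 below. The relations that follow are therefore those of a sum of FPKM and not of each basal marker. Over the 9 libraries the log2 sum of the 9 basal markers correlated with Prdm1 at r = -0.95 (Spearman's rho = -0.98), with an exact permutation p of 5.51e-06 for r and 4.96e-05 for rho, and Benjamini-Hochberg adjusted p of 8.82e-05 and 0.000794 over 16 relations computed, 8 members with each of the basal and granular sums. After the 2 libraries farthest from the median of the basal sum were left out (KH replicate 2 and KO replicate 1), r was -0.91, and within genotypes it was -0.97. For Grhl1 r was -0.75 (rho = -0.72, exact permutation p = 0.0227 and 0.0369, adjusted 0.0518 and 0.118), -0.81 without these 2 libraries and -0.93 within genotypes. For Klf4 r was -0.75 (rho = -0.72, exact permutation p = 0.0212 and 0.0369, adjusted 0.0518 and 0.118). The r of the other 5 members with the basal sum was positive for Grhl2 (0.65) and Trp63 (0.64) and negative for Ovol1 (-0.67), Gata3 (-0.53) and Grhl3 (-0.49), and none of these had an adjusted p below 0.05. Without the same 2 libraries r was 0.62 for Grhl2, 0.23 for Trp63, -0.47 for Ovol1, -0.70 for Gata3 and -0.22 for Grhl3. Because the granular sums fell into 3 low and 6 high libraries, no pooled correlation with them is given. The same 3 libraries had the highest basal sums (7411 to 8526 FPKM, against 4135 to 6604 FPKM), on which the basal correlations also rest. Within genotypes, r with the log2 granular sum ran from 0.43 (Klf4) to 0.94 (Prdm1), apart from Grhl2 (-0.93) and Trp63 (-0.96).

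**Figure D4:**
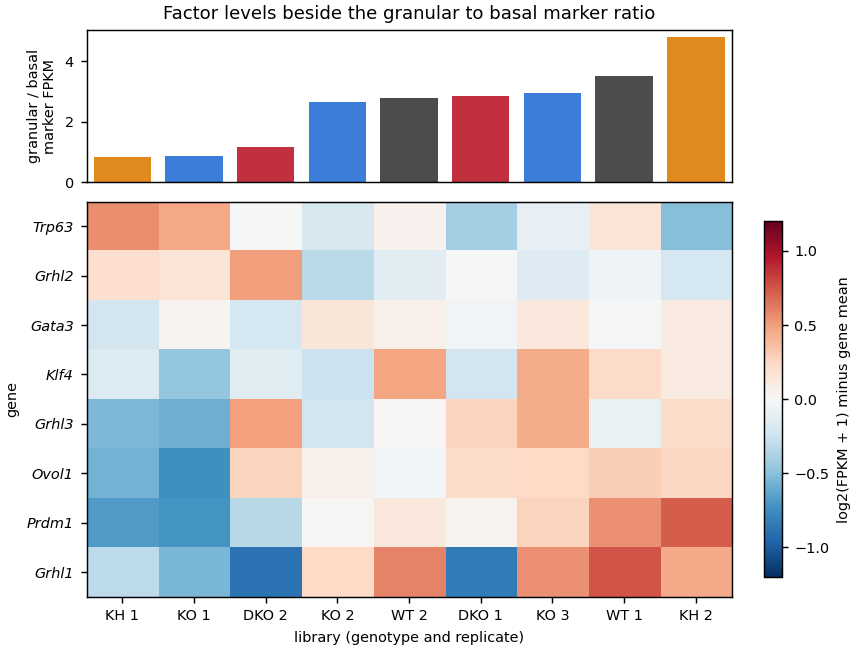
Upper panel, ratio of the summed FPKM of granular to basal markers in each library, coloured by genotype (WT grey, KO blue, KH orange, DKO red). Lower panel, log2(FPKM + 1) of each factor minus its mean over the 9 libraries, in the same order of libraries; KH replicate 1 and KO replicate 1, at ratios of 0.831 and 0.850, are low in Grhl3, Ovol1, Prdm1 and Grhl1 and high in Trp63 and Grhl2, and Grhl1 is lowest in both DKO libraries.

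The 2 DKO libraries, at 43.0 and 41.6 FPKM of Grhl1, had the following layer markers. DKO replicate 1 had 18364 FPKM of granular markers, within the WT range of 14805 to 18414, and 6415 FPKM of basal markers, above both WT libraries (5256 and 5334), but of the 9 single basal markers 4 were above both WT libraries in it, Krt14 by the most, and 4 below both. DKO replicate 2 had 8668 FPKM of granular markers, below both WT libraries, and 7411 FPKM of basal markers, again above both. The part of the layer balance in the Grhl1 levels was not tested beyond the fits that follow. Without KO replicate 1, KH replicate 1 and DKO replicate 2, an alternative added after the data were seen, the Grhl1 difference between DKO and WT was -1.51 (adjusted p = 0.156 by limma). With the log2 granular sum as a covariate, likewise added later, it was -1.35 (adjusted p = 0.0325, with 387 genes called in place of 123), and with the log2 basal sum -1.10 (adjusted p = 0.0756). In these 3 fits the differences of the 7 other members lay between -0.74 (Trp63, basal covariate) and 0.81 (Grhl3, basal covariate), and none of them was called. The median of the 8 was -0.18, -0.15 and 0.04 in turn.

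The genes most like each factor over the 9 libraries were sought among 12197 genes averaging at least 1 FPKM, by Pearson's r of log2(FPKM + 1), and are named as a description. For Grhl1 they were Arhgef5 (r = 0.98), Nebl (0.98) and Aktip (0.98), for Grhl2 Gpd2, Steap4 and Flrt2 (0.97 to 0.99), and for Grhl3 Herpud1, Fam83g and Ahnak2 (0.93 to 0.94). For Klf4 they were Usp6nl, Cyp4f39 and Abi1 (0.98 each), for Ovol1 Rnf19b, Gm5909 and Pim3 (0.95 to 0.96), and for Prdm1 Fcho1, Map2k3 and Gak (0.98 each). For Gata3 they were 1700001O22Rik, 1810021B22Rik and Dyrk1b (0.92 to 0.96), and for Trp63 Fam110b, Syde2 and Hn1l (0.96 to 0.97). No gene was among the 3 nearest of more than 1 factor.

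Genes linked to the grainyhead factors in other work, 24 in number, included desmosomal and cornified envelope genes, claudins and both Esrp genes. Between DKO and WT 1 of the 24 was called lower by limma, and that was the deleted gene Esrp2, and 0 were called higher. At an unadjusted p below 0.05 there were 10 of the 24, beside 13.8% of all genes. Of these, 8 were lower, the deleted genes Esrp1 and Esrp2 among them, and 2 were higher. The median was -0.19 beside 0.02 for all genes, and it turned to 0.15 without the 3 libraries of low granular sums, 0.06 with the granular and 0.15 with the basal covariate. Sprr1a, a small proline-rich precursor of the cornified envelope, measured 29.7 and 20.7 FPKM in WT, 8.38, 32.3 and 16.5 FPKM in KO, 8.59 and 43.5 FPKM in KH, and 178 and 209 FPKM in DKO. Both DKO libraries were far above all others, by 2.91 on the log2 scale over WT (SE 0.72, adjusted p = 0.141 by limma) and by 3.20 over the mean of WT, KO and KH (SE 0.58, adjusted p = 0.0481), where it was called. That call was lost without a filter on low genes, with eBayes without a trend, with the replicate block and whenever a WT, KO or DKO library was left out. Sprr1a is itself 1 of the 13 granular markers. Dsc1, a desmosomal cadherin, measured 190.2 and 389 FPKM in WT, 84.0, 71.7 and 295 FPKM in KO, 124 and 127 FPKM in KH, and 59.4 and 72.1 FPKM in DKO, a difference of -2.04 (SE 0.62, adjusted p = 0.212 by limma). Dsg1a, the desmoglein known as a direct Grhl1 target and named here outside the rule for names, measured 294 and 426 FPKM in WT, 124, 188 and 323 FPKM in KO, 189 and 169.8 FPKM in KH, and 146 and 107 FPKM in DKO. Its difference was -1.49 (SE 0.42, adjusted p = 0.182 by limma). The 2 DKO libraries overlapped the KO range, since KO replicate 1, with few spinous markers and 52.8 FPKM of Grhl1, was at 124 FPKM; Dsc1 and Dsg1a are themselves among the 8 spinous markers.

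**Figure D5:**
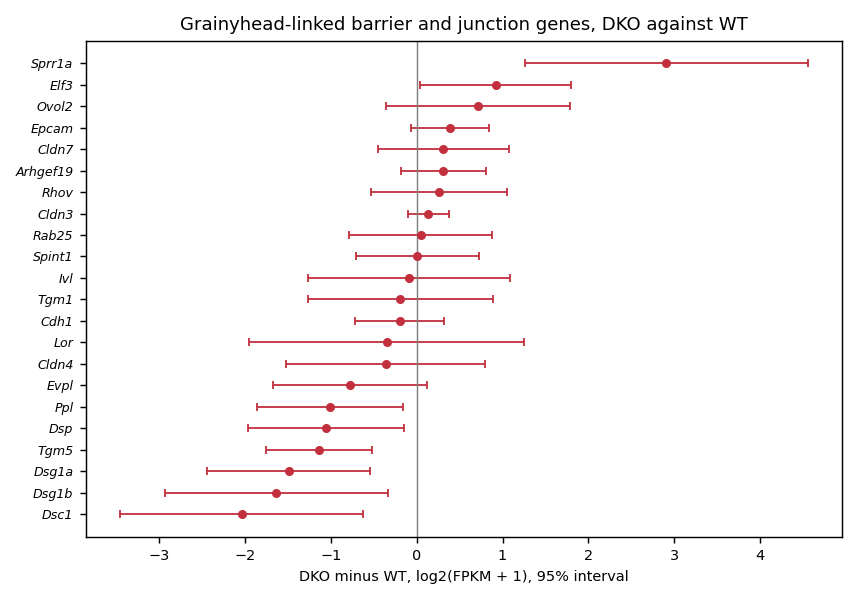
Difference between DKO and WT in log2(FPKM + 1), with limma's 95% interval, for 22 grainyhead-linked genes (the deleted Esrp1 and Esrp2 left out), ordered by size. The desmosomal genes Dsc1, Dsg1b and Dsg1a stand at the lower end (-2.04, -1.63 and -1.49; Dsg1b is at -1.01 without WT replicate 2), Sprr1a stands at 2.91, and none of the 22 was called.

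The 24 genes linked to Trp63 included basal keratins, integrins and Klf4. By limma 0 of the 24 were called in DKO against WT, beside 0.728% of all genes, and 1 had an unadjusted p below 0.05, beside 13.8%, with a median of 0.04 beside 0.02 for all genes. Krt14, the basal keratin, measured 1805 and 1722 FPKM in WT, 3692, 3202 and 2133 FPKM in KO, 3260.3 and 1809.6 FPKM in KH, and 3032 and 3596 FPKM in DKO. All 7 mutant libraries were above both WT libraries, KH replicate 2 only just, and the Krt14 difference between DKO and WT was 0.91 (SE 0.46, adjusted p = 0.415 by limma). Krt15, another basal keratin and named outside the rule for names, went the other way, at 990.3 and 1109 FPKM in WT, 618 to 676 FPKM in KO, 588 and 484 FPKM in KH, and 655 and 288 FPKM in DKO, all 7 below both WT libraries. With the log2 basal sum as a covariate, in which Krt14 is itself counted, the Krt14 difference was 0.51. Runx1 (0.75, SE 0.20, adjusted p = 0.175) and Perp (-0.62, SE 0.46, adjusted p = 0.561) followed in size, and Perp was at -0.38 without DKO replicate 2.

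Among 33 other regulators of the epidermis, 0 were called between DKO and WT by limma, beside 0.728% of all genes. At an unadjusted p below 0.05 there were 6, with 4 higher and 2 lower, beside 13.8% of all genes, and the median was -0.05. The 3 with the largest differences were Rora, Elf3 and Klf5. Rora, a nuclear receptor, measured 37.5 and 39.97 FPKM in WT, 16.2, 42.1 and 36.9 FPKM in KO, 19.9 and 33.7 FPKM in KH, and 22.8 and 10.6 FPKM in DKO, a difference of -1.26 (SE 0.49, adjusted p = 0.315) that was -0.74 without DKO replicate 2 and -0.76 with the basal covariate. Like several factors above, it was low in KO replicate 1 and KH replicate 1. Elf3, an epithelial ETS factor that is also on the grainyhead list, measured 3.81 and 5.40 FPKM in WT, 3.06, 4.41 and 6.00 FPKM in KO, 3.24 and 5.84 FPKM in KH, and 13.0 and 6.84 FPKM in DKO. Both DKO libraries lay above the other 7, by 0.92 over WT (SE 0.39, adjusted p = 0.348), or by 0.50 without DKO replicate 1. Klf5 differed by -0.85 (SE 0.58, adjusted p = 0.533), with WT libraries at 45.5 and 71.7 FPKM and DKO libraries at 22.5 and 43.5 FPKM. Leaving out WT replicate 2 gave -0.52, and leaving out DKO replicate 1 or 2 gave -0.39 or -1.31.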

How the data were processed

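The authors prepared stranded mRNA libraries from purified epidermis, and, per the labels, mapped reads to mm10 with TopHat 1.4.1 and computed the deposited FPKM per gene with Cuffdiff 2.2.0. Deposited mean columns were not used; means were recomputed from the libraries. Members, lists and names were chosen with earlier results of these data known. The names were the 8 members, Esrp1, Esrp2, listed genes called or among the 3 largest differences of their list, and the 3 genes most like each member.

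Genes averaging above 0.1 FPKM in a genotype (16897) were fitted as log2(FPKM + 1), all 9 libraries together, with limma 3.58.1 in R 4.3.3 (4 genotype means, eBayes with an intensity trend, Benjamini-Hochberg over all genes). Such differences understate the change of low genes. No outcome of a test of the fit on simulated data is given here, so none stands behind its p-values. Correlations used exact permutation of the 9 libraries, computed with numpy 2.4.6, with ranks from scipy 1.17.1. The permutations crossed genotypes, so their p-values take the 9 libraries as exchangeable, which the design does not ensure. Alternatives covered the pseudocount, filters, scaling, library weights, transcript length, a replicate block and leaving out each library. Exon and gene coordinates came from GENCODE M21.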

Additional observations from a re-analysis of the deposited data

How the results depend on the processing

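Between DKO and WT, 0 members were called in the fit reported (of 123 genes called in all). The count was 1 (Grhl1) after rescaling to TPM (178 genes in all), with arrayWeights (556) and, in an alternative added after the data were seen, with the log2 granular marker sum as a covariate (387). Against the mean of WT, KO and KH, with 166 genes called, it was 1 after rescaling to TPM (232 in all) and 1 with the granular covariate (444), and for the trend, with 0 genes called, it was 1 with arrayWeights (1577 in all). Of the grainyhead list, the 1 gene called between DKO and WT became 2 in a fit of only DKO and WT and with the basal covariate, 3 with the granular covariate and 4 with arrayWeights, and 1 to 2 when single libraries were left out (2 without KO replicate 3, KH replicate 1 or KH replicate 2). Counts of members called stayed at 0 in every comparison when single libraries were left out; a genotype left with 1 library was then assumed to vary like the others. Rescaling to TPM moved the median of all genes by -0.11 in DKO against KH. With the replicate block by the number in the sample titles, the count of members called was 0 in all 8 comparisons, and between DKO and WT the grainyhead list stayed at 1 and the other 2 lists at 0, with 67 genes called in all. Against the mean of WT, KO and KH, the call of Sprr1a was lost with this block. Libraries with the same title number did not deviate together (r from -0.60 to 0.49, above 0.1 in 4 of 12 pairs). The sample descriptions number the libraries differently, and by those numbers r was -0.24 to 0.57, above 0.1 in 4 of 6 pairs. Those 4 pairs were all between mutant libraries (r from 0.35 to 0.57), whereas the pairs with WT replicate 1 had r of 0.04 and -0.24. Neither numbering thus pairs all libraries, and the fit reported used no pairing. A replicate block by the description numbers, added after the data were seen, leaves 1 residual degree of freedom. It sets 3 libraries with numbers of their own aside, and DKO and WT share no number in it, so its differences between them are indirect. With it 0 genes were called by limma in any comparison, the deleted Esrp2 included, and the grainyhead list fell to 0 (2.42% to 12.4% of genes had an unadjusted p below 0.05), which says nothing of the stability of the results. FPKM gives no counting error, so the depth of single values could not be weighed.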
